A study of Homo sapiens with 8 samples.

Results

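Aminoacyl-tRNA synthetases are the enzymes that load each tRNA with its amino acid before translation. The 38 genes described here comprise 19 that encode cytosolic enzymes or their subunits, 16 that encode mitochondrial enzymes, and 3 (AIMP1, AIMP2 and EEF1E1) that encode the scaffold proteins of the multisynthetase complex. They were chosen by name from a list of current symbols and matched to Ensembl gene IDs, and all 38 were found among the 63677 gene IDs of the count files. The rule used gene names and no expression value, but the genes were chosen with earlier results of these data known.

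The RNA came from cultures of the human lung adenocarcinoma line PC9 and of PC9-BrM3, its subline with brain metastatic ability, in 4 groups of 2 libraries. The shHSF1 group was PC9-BrM3 carrying Tet-pLKO-shHSF1 (clone 7480), a doxycycline-inducible hairpin against HSF1, the master transcription factor of the heat shock response. Its control, shNTC, was PC9-BrM3 carrying Tet-pLKO-shNTC, a non-target hairpin. Both were made by lentiviral transduction and selected with puromycin for 5 days, and both received 500 ng/mL doxycycline for 48 h before RNA was harvested. The remaining groups were untransduced PC9-BrM3 and untransduced PC9 parental cells, each grown for 48 h as sub-confluent monolayers with no doxycycline named. A single hairpin and a single subline stand for HSF1 loss and for brain metastasis in these samples. Whether the replicates were grown separately is not stated, and p-values therefore reflect the spread between libraries, which may be technical.

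Cytosolic synthetases serve the ribosomes of the cytoplasm, and several of them (EPRS1, IARS1, KARS1, LARS1, MARS1, QARS1 and RARS1) sit with the scaffold proteins in the multisynthetase complex. Mitochondrial synthetases are encoded in the nucleus, imported, and serve translation of the few proteins encoded by mitochondrial DNA. Most amino acids have a separate gene for each compartment, but GARS1 and KARS1 each encode both the cytosolic and the mitochondrial enzyme and are counted here as cytosolic. When amino acids run short, uncharged tRNA activates the kinase GCN2 (EIF2AK4), translation of the transcription factor ATF4 rises, and ATF4 binds amino acid response elements in target genes that include many cytosolic synthetases.

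The element's core, TGATGNAA, was searched on both strands in RefSeq promoters (GRCh38.p14), each 300 bases long, from 250 before to 50 after a transcription start. A sequence was found for 33 of the 38 genes, with 45 promoters in all, and none was at hand for AARS2, LARS1, VARS1, VARS2 and YARS1. The core was present in 8 of these 33 genes (24.2%), against 4.46% of the 27305 genes with a promoter sequence. By compartment it was present in 7 of 16 cytosolic genes (43.8%), 1 of 14 mitochondrial genes (7.14%) and 0 of 3 scaffold genes. The 30 bases around each match are printed 5′ to 3′ on the strand of the gene, with the match in capitals, because the cytosolic enzymes are compared below with and without it. A match is a description of letters and not a shown binding site.
AARS1: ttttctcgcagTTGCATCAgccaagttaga
CARS1: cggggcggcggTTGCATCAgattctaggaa
GARS1: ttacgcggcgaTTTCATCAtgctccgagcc
IARS1: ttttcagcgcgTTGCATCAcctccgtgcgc
MARS1: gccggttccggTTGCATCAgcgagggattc
NARS1: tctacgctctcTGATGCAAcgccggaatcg
TARS1: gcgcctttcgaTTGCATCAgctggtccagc
YARS2: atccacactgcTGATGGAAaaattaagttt

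The 30 bases lie at chr16:70289675-70289704 (minus strand) for AARS1, chr11:3057407-3057436 (minus) for CARS1, chr7:30594834-30594863 (plus) for GARS1 and chr9:92293692-92293721 (minus) for IARS1. They lie at chr12:57488053-57488082 (plus) for MARS1, chr18:57621804-57621833 (minus) for NARS1, chr5:33440956-33440985 (plus) for TARS1 and chr12:32756076-32756105 (minus) for YARS2. In CARS1, IARS1, MARS1, NARS1 and TARS1 the match begins within 15 bases of the annotated start (at -2, -13, -4, 15 and 3), in GARS1 at -33, and in AARS1 and YARS2 at -187 and -197. In 6 of the 7 cytosolic genes the letters are TTGCATCA or, read on the other strand, TGATGCAA, and in GARS1 they are TTTCATCA. The heat shock element, the kind of sequence bound by HSF1, was searched as GAA, TTC and GAA with 2 free bases between units, on both strands, and was in 0 of the 33 genes and in 0.608% of all genes with a promoter. That result says only that these letters are not in these windows.

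The libraries held 33550140 to 56715336 counts assigned to genes. Per the file headers, the shHSF1 and shNTC libraries were run on lane 1 and the untransduced libraries on lane 7, so lane, transduction, selection and doxycycline cannot be told apart between these sets, and tests were made only within a lane. PC9-BrM3 replicate 2 stood apart, with 17.29% of its counts on genes of the mitochondrial chromosome against 5.4% in PC9-BrM3 replicate 1 and 1.4% to 6.23% in the other 6 libraries. The 7 epithelial markers were expressed in every library, while leukocyte, fibroblast and neural markers summed to at most 0.83 CPM. Of the endothelial markers PECAM1 was at 0 in all libraries and VWF reached at most 1.06 CPM, but CDH5 was detected throughout, at 24.6 and 18.4 CPM in shHSF1 against 44.8 and 37.4 CPM in shNTC, and at 32.6 and 24.8 CPM in PC9-BrM3 against 55.4 and 51.7 CPM in PC9 parental. Of the 2 endothelial markers tested 1 was called lower in each comparison and 1 higher in the knockdown. Of the 7 epithelial markers 3 were called higher in the knockdown and 0 in the subline. The part of these shifts in the results below was not tested. HSF1 fell with its hairpin to 16.3 and 14.1 CPM in shHSF1, against 185 and 189 CPM in shNTC, or -3.61 on the log2 scale (SE 0.08, edgeR quasi-likelihood adjusted p = 2.66e-08). Between the untransduced lines HSF1 read 52.8 and 50.7 CPM in PC9-BrM3, beside 45.3 and 47.7 CPM in PC9 parental (log2 fold change 0.15, adjusted p = 0.531). HSF1 in the shNTC control thus lay well above HSF1 in the same subline untransduced. The CPM of the 2 sets are scaled separately, and this gap between lanes was not tested.

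The cytosolic enzymes were the more abundant at the RNA level. Levels are given as CPM (library-size-scaled counts, here on 1 scale for all 8 libraries) per kb of annotated exon, since longer genes collect more reads. In each library the median of the 19 cytosolic genes lay between 46.9 and 56.2 CPM per kb and that of the 16 mitochondrial genes between 6.64 and 10 CPM per kb. The highest mean levels over the 8 libraries were those of TARS1 (114 CPM per kb), the threonyl enzyme, and NARS1 (96.6), the asparaginyl enzyme. They were followed by GARS1 (84.8), SARS1 (78.2) and EPRS1 (74.7). The exception among the mitochondrial genes was IARS2, the isoleucyl enzyme of mitochondria, at 74.2 CPM per kb and rank 6 of the 38. It ranged from 59 in PC9-BrM3 replicate 2 to 91.6 in PC9 parental replicate 1. The neighbours in this order overlapped from library to library, so neighbouring ranks down to 6 are not separated by these data. NARS1 lay above TARS1 in both PC9-BrM3 libraries (98.7 and 108 against 90.3 and 105 CPM per kb) and below it in the other groups.

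The lowest of the 38 was SARS2, the mitochondrial seryl enzyme, at 0.756 CPM per kb on average. Of its exon bases 53.1% are shared on the same strand with FBXO17 and ENSG00000269547, and the counting options in the file headers hold none that keeps reads on overlapping genes, so its level is uncertain. VARS2 (22.0% shared, with GTF2H4) and EEF1E1 (18.7%, with EEF1E1-BLOC1S5) carry the same doubt. Over the 13 amino acids with 1 gene in each compartment the level of the cytosolic gene was a median of 4.36 times that of its mitochondrial partner and was higher in 11 of the 13. The exceptions were histidine, where HARS1 stood at 0.736 times HARS2, and isoleucine, where IARS1 stood at 0.802 times IARS2. Both rest on the division by annotated exon length, 8436 bases for HARS1 against 3422 for HARS2 and 7401 for IARS1 against 4162 for IARS2. In CPM without that division the cytosolic gene was the higher in every library. HARS1 read 47.7 to 78.6 CPM and HARS2 23.1 to 40.4, and IARS1 read 347 to 614 CPM and IARS2 246 to 381. The widest ratio, 103 for SARS1 over SARS2, rests on the uncertain SARS2 level.

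**Figure D1:**
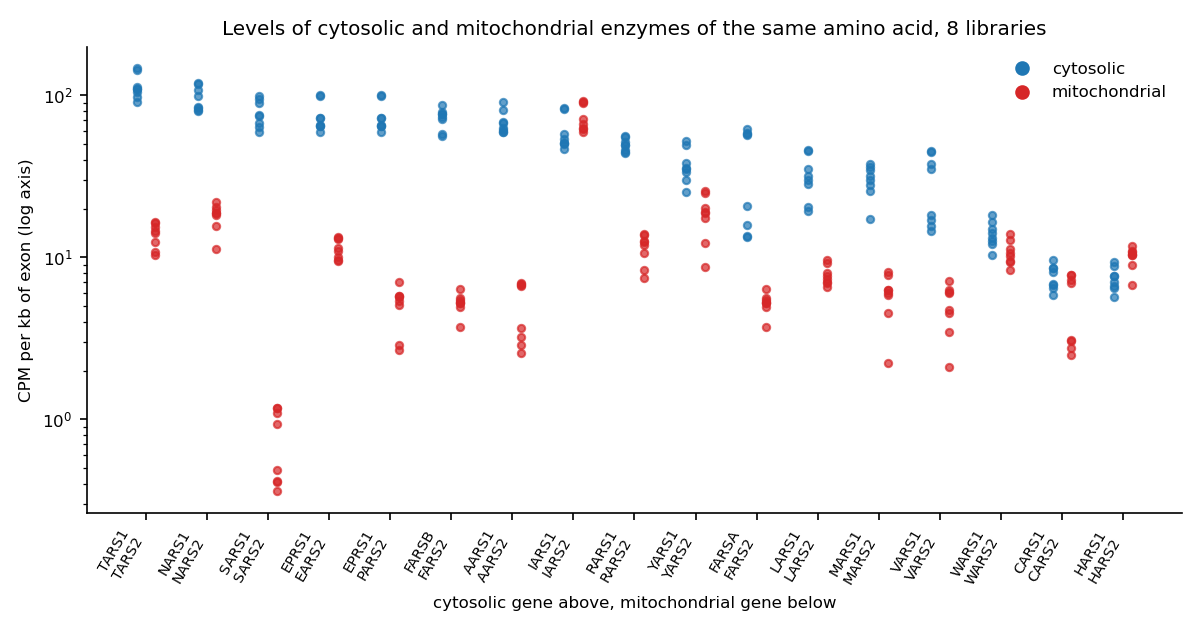
Level in CPM per kb of exon (log axis) of each cytosolic gene (blue) and of the mitochondrial gene for the same amino acid (red), with 1 point per library and 8 libraries per gene. Pairs are ordered by the cytosolic level, and the red points lie above the blue ones on average only for IARS2 and HARS2.

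FARSA, VARS1, CARS2, AARS2 and SARS2 were among the genes that differed more between the lanes than within them. FARSA, the alpha subunit of the cytosolic phenylalanyl enzyme, read 58.4 and 61.6 CPM per kb in shHSF1 and 56.6 and 57.5 in shNTC, but 15.8 and 20.6 in PC9-BrM3 and 13.3 and 13.6 in PC9 parental. FARSB, which encodes the beta subunit of the same enzyme, stayed between 56.1 and 87.6 CPM per kb in all 8 libraries. VARS1 read 44.5 and 45.4 CPM per kb in shHSF1 and 37.8 and 35.3 in shNTC, but 15.6 and 14.5 in PC9-BrM3, with 17 and 18.2 in PC9 parental. CARS2, the mitochondrial cysteinyl enzyme, read 7.28 and 6.98 in shHSF1 and 7.81 and 7.82 in shNTC, but 3.08 and 3.04 in PC9-BrM3 and 2.48 and 2.76 in PC9 parental. AARS2 read 6.83 and 6.97 in shHSF1 and 6.67 and 6.76 in shNTC, but 2.88 and 3.68 in PC9-BrM3 and 2.57 and 3.23 in PC9 parental. SARS2, whose level is uncertain, read 0.932 and 1.09 in shHSF1 and 1.17 and 1.18 in shNTC. It read 0.417 and 0.359 in PC9-BrM3 and 0.412 and 0.49 in PC9 parental. Since shHSF1, shNTC and untransduced PC9-BrM3 are the same subline, these gaps go with lane, transduction, selection or doxycycline, which cannot be told apart.

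With the HSF1 hairpin the synthetases changed in both directions, and neither compartment moved as a whole. Past the threshold (adjusted p under 0.05 over all 16840 genes tested), 15 of the 38 genes changed, 7 of them higher and 8 lower. This is 39.5% of the 38, against 45.7% of all genes tested (22.2% higher and 23.5% lower), so the share is near the background. The median log2 fold change was -0.04 over the 38 and 0.01 over all genes. By compartment, 4 cytosolic genes rose and 2 fell (median 0.08), 3 mitochondrial genes rose and 3 fell (median -0.07), and all 3 scaffold genes fell (median -0.41). Groups did not overlap for 12 genes that were higher and 17 that were lower, against 36.7% and 36.6% of all genes, with 2 libraries a group. In the bulk RNA used here, less RNA per cell and fewer cells of a kind cannot be told apart.

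**Figure D2:**
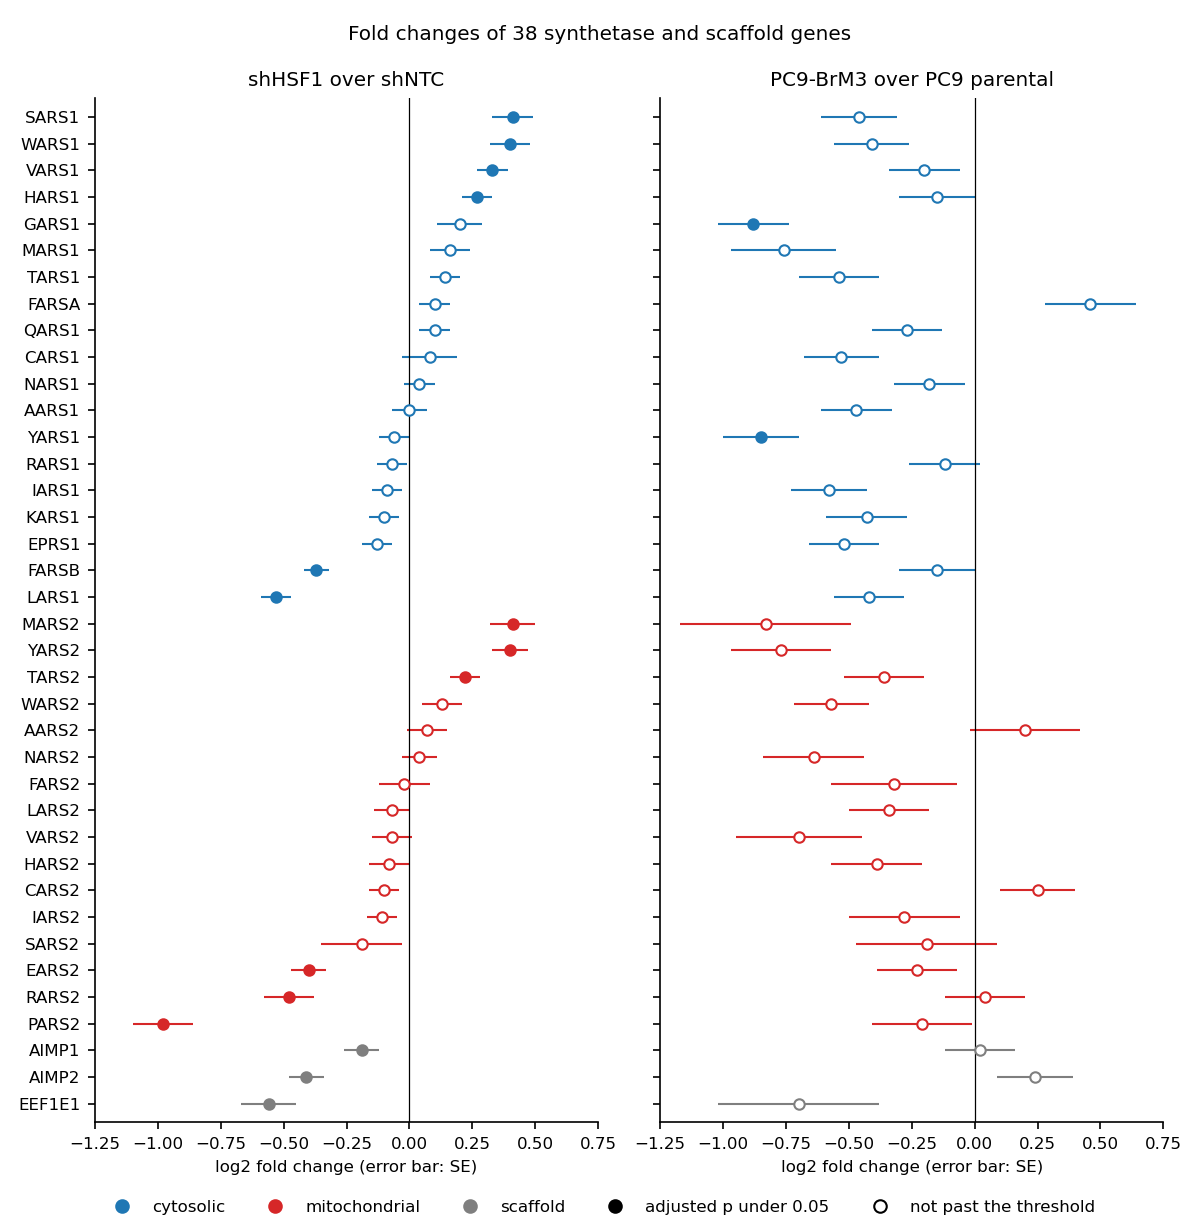
Log2 fold change with its standard error for each of the 38 genes, shHSF1 over shNTC on the left and PC9-BrM3 over PC9 parental on the right, with filled points past adjusted p of 0.05. Filled points fall on both sides of 0 on the left (7 above, 8 below), while on the right 32 of 38 points lie below 0 and 2 are filled.

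Among the cytosolic enzymes SARS1, WARS1, VARS1 and HARS1 rose. SARS1, which charges serine tRNA and also selenocysteine tRNA, read 358 and 309 CPM in shHSF1 and 266 and 236 CPM in shNTC (log2 fold change 0.41, SE 0.08, edgeR adjusted p = 0.00275). WARS1, the tryptophanyl enzyme, which is known as an interferon-induced gene, read 98.2 and 95.9 CPM in shHSF1, against 78.5 and 68.1 CPM in shNTC (0.40, SE 0.08, edgeR adjusted p = 0.00203). Both pairs were separated, although the 2 shNTC libraries of each gene also differed from each other, replicate 1 being the higher. VARS1, the valyl enzyme, read 281 and 294 CPM in shHSF1 and 235 and 222 CPM in shNTC (0.33, SE 0.06, edgeR adjusted p = 0.00136). HARS1, the histidyl enzyme, read 81.6 and 79 CPM in shHSF1 and 66.2 and 67 CPM in shNTC (0.27, SE 0.06, edgeR adjusted p = 0.00619). These 4 rises were between 20.7% and 33.1% in size. In 1 fit of all 8 libraries SARS1, VARS1 and HARS1 no longer passed (adjusted p = 0.0569, 0.0523 and 0.131), whereas WARS1 did.

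LARS1 and FARSB were the cytosolic genes that fell. LARS1 (chr5:145492601-145562223, minus strand, GRCh37) encodes the leucyl enzyme, which is also known as a leucine sensor for the mTORC1 pathway. It read 171 and 166 CPM in shHSF1 and 249 and 237 CPM in shNTC, so that it fell by 0.53 on the log2 scale (SE 0.06, edgeR adjusted p = 5.93e-05), or 30.6% lower. FARSB read 204 and 205 CPM in shHSF1 and 269 and 260 CPM in shNTC (-0.37, SE 0.05, edgeR adjusted p = 0.000396). Its partner subunit FARSA did not follow, with 148 and 160 CPM in shHSF1 and 141 and 145 CPM in shNTC (0.10, edgeR adjusted p = 0.208). The RNA of 1 subunit of the enzyme thus fell, and that of the other did not pass the test. The LARS1 and FARSB calls held in each of the 12 alternative analyses.

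The scaffold genes were the one group in which every gene fell. EEF1E1, which links the complex to translation elongation, read 9.84 and 10.3 CPM in shHSF1 and 14.4 and 15.4 CPM in shNTC (log2 fold change -0.56, SE 0.11, edgeR adjusted p = 0.00215). AIMP2 (chr7:6048876-6063465, plus strand, GRCh37), a core scaffold of the complex, read 53.3 and 55.4 CPM in shHSF1 and 72.4 and 72.2 CPM in shNTC (-0.41, SE 0.07, edgeR adjusted p = 0.000643). AIMP1, another of its scaffold proteins, had the smallest change, with 54.9 and 57 CPM in shHSF1 and 65.1 and 62.2 CPM in shNTC (-0.19, SE 0.07, edgeR adjusted p = 0.0463). AIMP1 passed narrowly and lost its call in 8 of 12 alternatives, with adjusted p up to 0.207, and EEF1E1 lost its call in the fit of all 8 libraries (adjusted p = 0.156). AIMP2 kept its call in all 12. The 7 cytosolic enzymes of the complex gave 1 gene lower (LARS1), 0 higher and a median of -0.09, and the 12 outside it gave 4 higher, 1 lower and a median of 0.12. The shares over all genes tested were 22.2% higher and 23.5% lower. Upper-quartile scaling moves the median of all genes to 0.07. With it the counts became 2 higher and 1 lower inside the complex and 7 higher and 1 lower outside it. Of the 16840 genes tested 4592 were then higher and 3387 lower, against 3739 and 3962 in the main fit.

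Of the mitochondrial enzymes PARS2, RARS2 and EARS2 fell. PARS2 (chr1:55222571-55230187, minus strand, GRCh37), the prolyl enzyme, had the largest fold change of the 38 in the knockdown comparison, with 6.98 and 6.69 CPM in shHSF1 and 13.9 and 13.1 CPM in shNTC (log2 fold change -0.98, SE 0.12, edgeR adjusted p = 9.57e-05). That is 49.4% lower, at one of the lower levels among the 38 (5.04 CPM per kb on average). RARS2, the arginyl enzyme, read 22.2 and 20.1 CPM in shHSF1 and 30.9 and 27.9 CPM in shNTC (-0.48, SE 0.10, edgeR adjusted p = 0.00263). EARS2, which charges both glutamate and, as the first step of an indirect route, glutamine tRNA, read 57.4 and 60.9 CPM in shHSF1 and 78.4 and 77.6 CPM in shNTC (-0.40, SE 0.07, edgeR adjusted p = 0.000856). These 3 calls held in all 12 alternatives. The gene EPRS1, whose cytosolic product joins glutamate and proline activity in 1 protein and so covers the amino acids of EARS2 and PARS2, had a log2 fold change of -0.13 that did not pass (edgeR adjusted p = 0.129).

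MARS2, YARS2 and TARS2 were the mitochondrial genes that rose. MARS2, the methionyl enzyme, read 25.5 and 24.9 CPM in shHSF1 and 18.1 and 19.8 CPM in shNTC (0.41, SE 0.09, edgeR adjusted p = 0.00484). YARS2, the tyrosyl enzyme, read 56.9 and 57.2 CPM in shHSF1 and 44.4 and 42.1 CPM in shNTC (0.40, SE 0.07, edgeR adjusted p = 0.0012). Both groups were tight in these genes and did not overlap. TARS2, the threonyl enzyme, read 68.3 and 69.7 CPM in shHSF1 and 59.6 and 59.2 CPM in shNTC (0.22, SE 0.06, edgeR adjusted p = 0.0197). In the fit of all 8 libraries none of the 3 passed (adjusted p = 0.343 for MARS2, 0.114 for YARS2 and 0.291 for TARS2), and TARS2 also lost its call when any 1 library was left out.

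**Figure D3:**
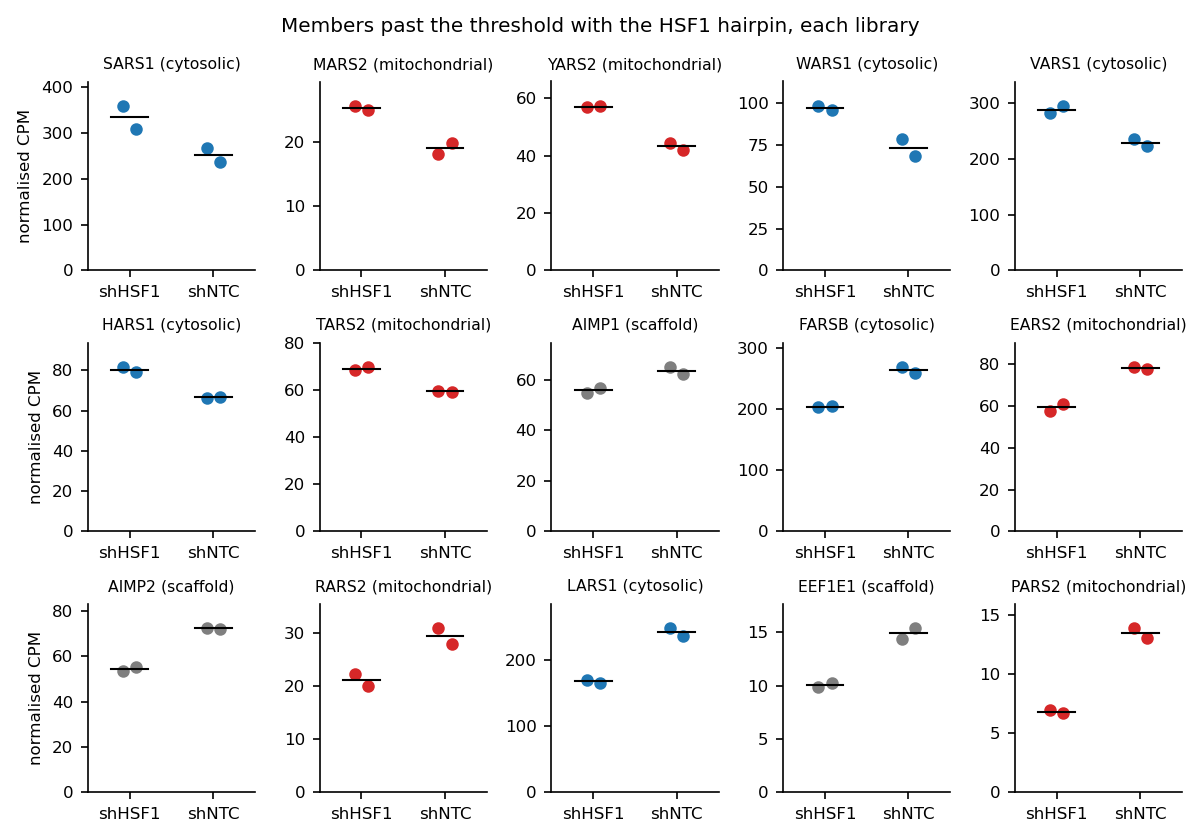
Normalised CPM in each of the 2 shHSF1 (left) and 2 shNTC libraries (right) for the 15 genes past the threshold, with a line at the group mean and axes that start at 0. Panels run from the largest rise (SARS1) to the largest fall (PARS2), and in every panel both shHSF1 points lie on 1 side of both shNTC points.

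The other 23 genes did not pass the test, and their log2 fold changes lay between -0.19 and 0.20. SARS2 was at the low end (-0.19, edgeR adjusted p = 0.368) and GARS1 at the high end (0.20, edgeR adjusted p = 0.115). Taken by chemistry, the class I enzymes, which share a Rossmann-fold catalytic domain, gave 4 genes higher and 3 lower of 18, and the class II enzymes, built on an antiparallel beta sheet, gave 3 higher and 2 lower of 16. EPRS1 carries one domain of each class and was left out of both. Of the cytosolic genes with TGATGNAA in the promoter window 0 of 7 passed (median 0.08), of those without it 4 of 9 (median 0.10), and of those with no promoter sequence 2 of 3 (median -0.06), beside 45.7% of all genes tested. Of the 7 with it, GARS1 and MARS1 each passed in 4 of the 12 alternatives.

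In PC9-BrM3 the cytosolic enzymes were lower than in PC9 parental cells almost throughout, although few passed the test 1 by 1. Of the 19 cytosolic genes 18 had a log2 fold change below 0, with a median of -0.43, against 0.01 over the 17372 genes tested. In 18 of the 19 both PC9-BrM3 libraries lay below both PC9 parental libraries, as was the case for 29.4% of all genes. Over all 38 genes the reverse order held for 3 (FARSA, CARS2 and AIMP2), against 29.6% of all genes. GARS1 and YARS1 fell past the threshold, which makes 2 of the 38 genes (5.26%), against 7.14% of all genes (3.87% higher and 3.27% lower). At an unadjusted p under 0.05, 12 cytosolic and 5 mitochondrial genes were lower, against 11.7% of all genes. The 16 mitochondrial genes gave 13 below 0, a median of -0.33 and 9 without overlap on the lower side. None of the mitochondrial or scaffold genes passed.

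GARS1 (chr7:30634297-30673649, plus strand, GRCh37), the glycyl enzyme of both compartments, read 255 and 275 CPM in PC9-BrM3, against 498 and 473 CPM in PC9 parental (log2 fold change -0.88, SE 0.14, edgeR adjusted p = 0.0251), which is 45.5% lower. YARS1 (chr1:33240840-33283754, minus strand), the cytosolic tyrosyl enzyme, read 236 and 203 CPM in PC9-BrM3 and 389 and 406 CPM in PC9 parental (-0.85, SE 0.15, edgeR adjusted p = 0.0312), or 44.7% lower. For both genes the pairs were far apart beside the gap within each pair. Their calls rest on both PC9 parental libraries. Without PC9 parental replicate 1 the adjusted p was 0.308 for GARS1 and 0.269 for YARS1, and without replicate 2 it was 0.253 and 0.339, with log2 fold changes from -0.92 to -0.83.

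The next cytosolic genes by size were separated between the lines but did not pass. MARS1, the methionyl enzyme, read 174 and 119 CPM in PC9-BrM3 and 246 and 250 CPM in PC9 parental (-0.76, SE 0.21, edgeR adjusted p = 0.0966). IARS1, the isoleucyl enzyme, read 414 and 369 CPM in PC9-BrM3 and 591 and 579 CPM in PC9 parental (-0.58, SE 0.15, edgeR adjusted p = 0.0766). TARS1, the highest of the 38 in mean level per kb over the 8 libraries, read 497 and 588 CPM in PC9-BrM3 and 786 and 797 CPM in PC9 parental (-0.54, SE 0.16, edgeR adjusted p = 0.103). In each of these the PC9 parental libraries lay close together and most of the spread came from the PC9-BrM3 pair. CARS1 (-0.53), EPRS1 (-0.52), AARS1 (-0.47), SARS1 (-0.46), KARS1 (-0.43), LARS1 (-0.42) and WARS1 (-0.41) followed, with adjusted p from 0.092 to 0.164. The smallest shifts were those of RARS1 (-0.12), HARS1 (-0.15) and FARSB (-0.15). FARSA alone lay above 0, at 37 and 49.1 CPM in PC9-BrM3 and 31.2 and 31.3 CPM in PC9 parental (0.46, SE 0.18, edgeR adjusted p = 0.194).

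**Figure D4:**
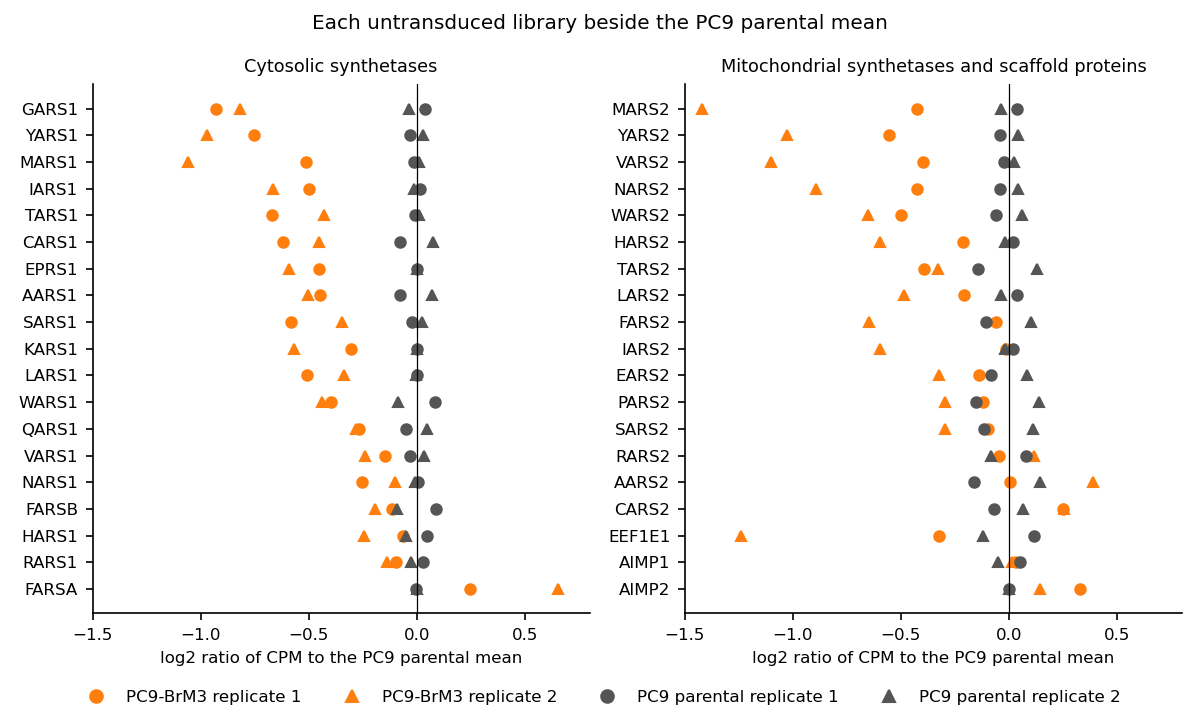
Log2 ratio of each library's CPM to the PC9 parental mean, for PC9-BrM3 (orange) and PC9 parental (grey), with replicate 1 as circles and replicate 2 as triangles. The orange points lie left of the grey ones for 18 of 19 cytosolic genes in the left panel, while in the right panel replicate 2 of PC9-BrM3 is often farther from 0 than replicate 1.

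A list of 13 cytosolic genes generally known as targets of ATF4 or its partners was compared with the other 6. The median log2 fold change of the 13 in PC9-BrM3 over PC9 parental was -0.52, with all 13 below 0. The other 6 had a median of -0.15, with 5 below 0. In all 13 and in 5 of the other 6, both PC9-BrM3 libraries lay below both PC9 parental libraries. In 1 of the 6 they lay above. The groups thus did not overlap in either set, and the lower order held for 29.4% of all genes tested. Of the 7 cytosolic genes with TGATGNAA in the promoter window the median was -0.54 (from -0.88 to -0.18). It was -0.27 (from -0.52 to 0.46) in the 9 without it and -0.42 in the 3 with no promoter sequence. The windows of both sets are short, the ranges overlap, and the difference between these sets was not tested. All 7 genes with TGATGNAA are also among the 13, so the split by list and the split by promoter are not independent. The lists were chosen with earlier results of these data known. ATF4 itself fell, to 189 and 116 CPM in PC9-BrM3, against 353 and 376 CPM in PC9 parental (-1.26, SE 0.25, edgeR adjusted p = 0.0435), and it was named after its values were seen. It lost its call in 3 of 12 alternatives, among them those without either PC9 parental library, with adjusted p up to 0.101 and log2 fold changes from -1.65 to -0.96.

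The mitochondrial genes depended more on which PC9-BrM3 library was read. MARS2 read 13.2 and 6.63 CPM in PC9-BrM3 and 18.2 and 17.3 CPM in PC9 parental (-0.83, SE 0.34, edgeR adjusted p = 0.198). YARS2, the one mitochondrial gene with the element core, read 25.5 and 18.4 CPM in PC9-BrM3 and 36.4 and 38.6 CPM in PC9 parental (-0.77, SE 0.20, edgeR adjusted p = 0.0847). In both the second PC9-BrM3 library was the lower. VARS2 (-0.70), NARS2 (-0.64) and WARS2 (-0.57) came next, and CARS2 (0.25), AARS2 (0.20) and RARS2 (0.04) were above 0, all without passing. IARS2, the most abundant mitochondrial enzyme, read 359 and 240 CPM in PC9-BrM3 and 367 and 358 CPM in PC9 parental (-0.28, SE 0.22, edgeR adjusted p = 0.465), so that its value rests on 1 library. The median over the 16 genes was -0.54 with replicate 2 alone and -0.19 with replicate 1 alone. Replicate 2 is the library with 17.29% of counts on mitochondrial-chromosome genes, and its part in these values was not tested. With those genes left out of the fit the calls were the same 2, and no mitochondrial gene passed.

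The scaffold genes did not move together in the subline. EEF1E1 read 14.7 and 7.79 CPM in PC9-BrM3 and 19.9 and 16.9 CPM in PC9 parental (-0.70, SE 0.32, edgeR adjusted p = 0.241). AIMP2 read 46.9 and 41.2 CPM in PC9-BrM3 and 37.3 CPM in both PC9 parental libraries (0.24, edgeR adjusted p = 0.36). AIMP1 had a log2 fold change of 0.02. The EEF1E1 value again came mostly from PC9-BrM3 replicate 2.

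Summed over genes, the cytosolic enzymes made up 4356 and 4290 CPM in PC9-BrM3, against 6062 and 6172 CPM in PC9 parental, which is 29.3% lower. The mitochondrial enzymes summed to 811 and 617 CPM in PC9-BrM3 and to 892 and 930 CPM in PC9 parental, 21.6% lower. The ratio of the cytosolic to the mitochondrial sum was 5.37 and 6.95 in PC9-BrM3, against 6.8 and 6.64 in PC9 parental, so the 2 lines overlapped. With the hairpins the cytosolic sums were 4740 and 4465 CPM in shHSF1 and 4789 and 4377 CPM in shNTC, which overlap, and the mitochondrial sums were 838 and 829 CPM in shHSF1 and 894 and 871 CPM in shNTC, 5.6% lower. Their ratio was 5.66 and 5.39 in shHSF1 and 5.36 and 5.03 in shNTC. With 2 libraries against 2, an exact two-sided permutation test cannot give a p below 0.333, so none of these sums could pass. The exact test reached that smallest p for each sum and ratio except the cytosolic sum with the hairpins and the ratio between the lines, which both gave an exact p = 1.

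Partners for the same amino acid moved little together. In shHSF1 over shNTC 7 of the 13 pairs had the same sign and the correlation of their log2 fold changes was 0.08 over the 13 pairs. In PC9-BrM3 over PC9 parental 10 of 13 pairs had the same sign, all 10 with both genes below 0, and the correlation was 0.2. Both genes of a pair share their libraries and scaling, so these values are descriptions. In 0 pairs did both genes pass, in either comparison. For serine, SARS1 rose with the hairpin (0.41) while SARS2 gave -0.19, and for tyrosine YARS2 rose (0.40) while YARS1 gave -0.06. For leucine LARS1 fell (-0.53) while LARS2 gave -0.07, and for arginine RARS2 fell (-0.48) while RARS1 gave -0.07.

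No gene of the 38 passed in both comparisons. Set side by side, 15 genes were above 0 with the HSF1 hairpin and below 0 in the subline, 16 were below 0 in both, 2 were above 0 in both and 4 were below 0 with the hairpin and above 0 in the subline, while AARS1 gave 0.0 with the hairpin and -0.47 in the subline. GARS1, at -0.88 in the subline, gave 0.20 with the hairpin (edgeR adjusted p = 0.115), and YARS1, at -0.85, gave -0.06 (edgeR adjusted p = 0.474). LARS1 and EEF1E1 were below 0 in both, at -0.53 and -0.56 with the hairpin and at -0.42 and -0.70 in the subline, and only the hairpin values passed. PARS2 gave -0.98 and -0.21.

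The proteins that work beside the synthetases on tRNA were mixed with the hairpin too. Of 20 tested genes on that list 5 were higher and 5 lower, or 25% each way, near the 22.2% and 23.5% of all genes. In the fit of all 8 libraries 0 were higher and 1 was lower. Without shNTC replicate 2 the counts were 2 higher and 5 lower, without shNTC replicate 1 they were 5 and 3, and without shHSF1 replicate 1 they were 3 and 2. DTD2, a proofreading enzyme that removes wrongly attached amino acids from tRNA, fell to 2.21 and 1.67 CPM in shHSF1, against 12.3 and 13.9 CPM in shNTC (-2.74, SE 0.17, edgeR adjusted p = 1.41e-06). SEPSECS, which completes selenocysteine on the tRNA that SARS1 loads with serine, fell by 0.55 on the log2 scale (edgeR adjusted p = 0.0028), in the opposite direction to SARS1. GATB (-0.40) and QRSL1 (-0.27), subunits of the mitochondrial amidotransferase that converts the product of EARS2 on glutamine tRNA, fell (edgeR adjusted p = 0.0103 and 0.0141), while GATC, its remaining subunit, gave 0.04 (edgeR adjusted p = 0.74). TUFM (0.33) and EEF1B2 (0.28), elongation factors of mitochondria and cytosol, XPOT (0.20), which exports tRNA from the nucleus, and EEF1A2 (0.39), an elongation factor of the cytosol, rose. Of the named genes of this list DTD2 alone held in all 12 alternatives. The others lost their calls in the fit of all 8 libraries, and GATB, QRSL1, XPOT and EEF1A2 also without shHSF1 replicate 1, with adjusted p over the alternatives up to 0.0797, 0.101, 0.275 and 0.315. QRSL1 lost its call without shNTC replicate 1 too, and XPOT and EEF1A2 without shNTC replicate 2. In the subline 0 of the 20 passed, with a median of -0.24. At an unadjusted p under 0.05, 1 was higher and 4 were lower, against 13.5% and 11.7% of all genes.

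The amino acid response genes, 30 of which were tested, gave 9 higher and 8 lower with the hairpin (30% and 26.7%, near the 22.2% and 23.5% of all genes) and a median of 0.08. In the fit of all 8 libraries 6 were higher and 4 lower. PPP1R15A, a phosphatase subunit that ends the translational arrest, rose to 191 and 169 CPM in shHSF1, against 54.2 and 52.6 CPM in shNTC (1.75, SE 0.07, edgeR adjusted p = 1.72e-07). SLC7A5 (1.20) and SLC3A2 (0.72), the subunits of a large neutral amino acid transporter, and TRIB3 (0.89), a pseudokinase that restrains ATF4, rose as well. IMPACT (-1.07), an inhibitor of GCN2, GCN1 (-0.31), its activator, ALDH18A1 (-0.63), of proline synthesis, and PSPH (-0.53), of serine synthesis, fell. Of these 8 genes SLC3A2, GCN1 and PSPH lost their calls in that fit of all 8 (adjusted p = 0.157, 0.0676 and 0.0727). ATF4 stood at -0.03 (edgeR adjusted p = 0.75).

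In the subline 12 of these 30 genes fell and 1 rose (40% and 3.33%, against 3.27% and 3.87% of all genes), with a median of -0.79. How many passed varied widely with the library left out, among these genes and among all genes alike. The median of the list was -0.88 without PC9 parental replicate 1 and -0.72 without replicate 2. It was -0.93 without PC9-BrM3 replicate 1 and -0.57 without replicate 2. ASNS, asparagine synthetase, read 54.3 and 35.5 CPM in PC9-BrM3 and 206 and 180 CPM in PC9 parental (-2.10, SE 0.24, edgeR adjusted p = 0.0106). DDIT4 (-2.42), an inhibitor of mTORC1, SLC7A11 (-1.60), the cystine transporter, and SLC7A5 (-1.05) fell too, and of these 4 only SLC7A5 lost its call without either PC9 parental library (adjusted p up to 0.148). NUPR1, a stress-induced chromatin protein, rose to 5.79 and 11.9 CPM in PC9-BrM3, against 0.615 and 0.566 CPM in PC9 parental (3.90, SE 0.43, edgeR adjusted p = 0.00982). The log2 fold changes of the 19 cytosolic synthetases in the same comparison ran from -0.88 to 0.46.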

How the data were processed

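Total RNA was purified on silica columns (RNeasy) and sequenced at a core facility, per the labels' protocols. The files hold raw counts of reads for each Ensembl gene as the authors deposited them. Per the file headers these were made with featureCounts 1.6.1 in reverse-stranded mode on the exons of GRCh37 genes. Trim Galore, HISAT2 and DESeq2 are named per the submitters' processing notes. Groups came from the sample titles. Symbols were matched for 52181 of 63677 gene IDs (81.9%), and for all 108 listed genes.

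The 4 libraries of a comparison were fitted on their own with edgeR 4.0.16 under R 4.3.3, using filterByExpr (minimum count 10, minimum total 15), TMM factors, the robust quasi-likelihood F test and Benjamini-Hochberg adjustment over all genes tested, with a threshold of 0.05. All 38 genes passed the filter in both comparisons. CPM in the comparisons are scaled over those 4 libraries, and levels per kb over all 8. The fits have 2 residual degrees of freedom, to which edgeR adds information shared across genes. Alternatives were RLE and upper-quartile factors, DESeq2 1.42.0, 2 other filters, a fit of all 8 libraries, a replicate block and leaving out each library. One more, leaving out mitochondrial-chromosome genes, was chosen after seeing the data. The test was tried on simulated counts first. In every group the replicates were further apart than counting error allows (chi-square per degree of freedom 12 to 335), and none was treated as a copy. EEF1A1, on the tRNA partner list, has pseudogene copies and is uncertain.

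The 38 genes and all lists were chosen with earlier results of these data known. All 38 could be named, with values in each library for those past the threshold. HSF1, ATF4 and up to 4 genes per direction of the partner and amino acid response lists, by smallest p, were named beside them.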

Additional observations from a re-analysis of the deposited data

How the results depend on the processing

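Over 12 alternatives, 426 of 456 values of single genes in the knockdown and 377 of 456 in the subline comparison kept their side of the threshold. Of the rest 11 and 75 newly passed, and 19 and 4 no longer passed. No gene called in the main fits changed sign, but some small changes that did not pass did. The knockdown value of CARS1, 0.08 in the main fit, ran from -0.07 to 0.23. Scaling moved the median of all genes by at most 0.07. For the knockdown, 1 fit of all 8 libraries gave 1669 genes higher and 2262 lower, cytosolic 1 higher, mitochondrial 0 higher (median -0.09) and scaffold 1 lower (median -0.44). Upper-quartile factors gave 4592 genes higher and 3387 lower. Of these 9 cytosolic genes were higher (median 0.15), and the medians were 0.0 for mitochondrial and -0.35 for scaffold genes. Leaving out 1 library gave medians of 0.0 to 0.08, -0.06 to -0.03 and -0.44 to -0.38 for the 3 groups. For the subline, DESeq2 gave 1206 genes higher and 997 lower, with 5 cytosolic and 2 mitochondrial genes lower. No filter gave 1660 and 1499, with 7 cytosolic (median -0.45), 5 mitochondrial and 1 scaffold gene lower. The fit of all 8 gave 2020 and 1814, with 12 cytosolic and 4 mitochondrial lower. With mitochondrial-chromosome genes left out the cytosolic median was -0.45. The cause of these shifts was not tested.

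Leaving out 1 library in the subline gave 182 to 4702 genes higher and 220 to 4526 lower. Cytosolic genes higher ran from 0 to 1, lower from 0 to 14 (median -0.46 to -0.43). Mitochondrial genes higher ran from 0 to 1, lower from 0 to 11 (median -0.54 to -0.19). Scaffold genes higher or lower ran from 0 to 1 (median -0.03 to 0.05). Counts were 0 for all 3 groups without either PC9 parental library. They were highest without a PC9-BrM3 library, where the spread was estimated from the PC9 parental pair alone. Replicate numbers share only a number here (correlation of same-number deviations 0.045 in the knockdown and -0.033 in the subline). The replicate block left the subline calls of the 38 as they were, and in the knockdown 2 more genes passed, GARS1 (adjusted p = 0.0154) and MARS1 (0.0255), which made 6 cytosolic genes higher. With 2 libraries a group, the widest standard errors were those of SARS2 in the knockdown (0.16) and MARS2 in the subline (0.34, with 13.2 and 6.63 CPM in its PC9-BrM3 libraries).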
